A study of Homo sapiens with 6 samples.

Results

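Glycolysis and hypoxia response genes are described here as a group of 40 genes, taken by symbol from a fixed list, out of the 63677 Ensembl gene identifiers in the count table. All 40 symbols matched 1 identifier each. They were divided by role into 5 oxygen-sensing genes, 2 glucose transporters, 15 glycolytic enzymes, 2 regulators of fructose bisphosphate, 5 genes of pyruvate and lactate handling and 11 other targets of the hypoxia-inducible factors (HIFs). T24, a human cell line from a high-grade bladder carcinoma, was grown in serum-containing medium in 5% CO2 with no oxygen restriction named in the labels. The cells were transfected for 4.5 h in serum-free medium with Lipofectamine 2000 and 25 nM siRNA, which was either a negative control siRNA (control) or a pair of siRNAs against the RNA-binding protein RBM3 (siRBM3). They recovered overnight in full medium before harvest, and polyadenylated RNA was sequenced from 3 samples per group. Control samples are numbered 1, 3 and 5 and siRBM3 samples 3, 4 and 5. The labels do not say whether these came from separate cultures, so the p-values measure only the spread between these samples.

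Glycolysis splits glucose into pyruvate in a chain of cytosolic enzyme steps, and lactate dehydrogenase turns pyruvate into lactate, which monocarboxylate transporters carry out of the cell. When oxygen is present, prolyl hydroxylases of the EGLN family mark HIF-alpha proteins for destruction, a step that uses oxygen itself. When oxygen is short, HIF-alpha proteins accumulate, pair with ARNT and bind a short DNA core motif near many glycolytic genes and genes of pH control, mitophagy and collagen modification. HIF control acts mainly on protein stability, and the mRNA levels reported here do not measure it.

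The libraries held 23603992 to 45098612 counts on genes. The silenced gene RBM3 averaged 297.8 ± 71.3 CPM (counts scaled to a common library size; SD, n = 3) without and 67.5 ± 19.6 CPM (SD, n = 3) with silencing, and the groups did not overlap. The library siRBM3 3 stood apart, with the highest depth and 9.40% mitochondrial counts against 1.63% to 4.15% in the others. Of 8 luminal urothelial markers, UPK1A, UPK1B, UPK3A and KRT20 were at or under 1 CPM on average. The other 4, UPK2, GATA3, FOXA1 and PPARG, averaged 1.42, 10.8, 43.3 and 143.4 CPM in control cells. Of 6 basal markers, KRT5, KRT6A, KRT14, KRT17 and TP63 were at or under 1 CPM, whereas CD44 averaged 1104.8 CPM in control cells. Above 1 CPM were 5 of 6 epithelial markers and 4 of 4 mesenchymal markers. The 5 leukocyte markers summed to between 0.237 and 0.586 CPM. The summed epithelial markers ranged from 5065 to 5870 CPM in control and from 4207 to 4305 CPM in siRBM3 samples. The largest part was KRT7, which averaged 3166.7 CPM in control and 2440.7 CPM in siRBM3 cells. KRT8, KRT18 and KRT19 averaged lower in siRBM3 cells too, and EPCAM averaged higher (5.47 CPM in control and 6.47 CPM in siRBM3 cells). CDH1 was under 1 CPM. The part of these markers in the results below was not tested.

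The core motif bound by HIF is written here as ACGTG or GCGTG, searched on both strands of the RefSeq promoters (250 bases before to 50 after a start site). Of the 40 genes, 36 had a promoter in that table, with 66 promoters in all, of which 66.7% held at least 1 of these motifs against 48.4% of all 35116 promoters. ACGTG, with or without GCGTG, was in 36.4% of the members' promoters and in 21.4% of all promoters, and GCGTG, with or without ACGTG, in 42.4% and 36.5%. For glycolytic enzymes with LDHA and LDHB, 62.2% of promoters held either motif (23 of 37 promoters from 17 genes). For the other HIF targets it was 83.3% (10 of 12 promoters from 9 genes). Promoters of the same gene were counted separately even where they overlap, as those of KDM3A do at a shared site. These shares are descriptions of letters, and a match is not a bound site. The windows below belong to genes whose levels are described further on, and each is printed on the strand of the gene with 1 match to a motif, or to its reverse complement CACGT or CACGC, in capitals. Further matches inside the windows of BNIP3 and PGK1 stay in lower case. Where ACGTG and CACGT overlap they form the palindrome CACGTG, and only 1 of the pair is in capitals. Positions are of the window on GRCh37, found by an exact match of the whole RefSeq promoter.
KDM3A, chr2:86668456-86668484, plus strand: ccgggaggctgtGCGTGtcttgtgagagc
HK2, chr2:75062137-75062165, plus strand: tccggcgagagcACGTGgagagaatcgtg
PGK1, chrX:77359531-77359559, plus strand: gcggcgtgccggACGTGacaaacggaagc
PFKP, chr10:3111230-3111258, plus strand: ccacgagcgcctACGTGatgcccggcccg
BNIP3, chr10:133795544-133795572, minus strand: cgcacgcgccgcACGTGccacacgcaccc
CA12, chr15:63674263-63674291, minus strand: gcggatctcaccCACGCctgccagcagct
GAPDH, chr12:6644338-6644366, plus strand: ctctgcggggtcACGTGtcgcagaggagc

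In control T24 cells the members covered a wide range of levels. To compare genes with each other, CPM was divided by the exon length in kilobases (RPKM). GAPDH, which oxidises glyceraldehyde 3-phosphate, was the highest at 2650 ± 366 RPKM (SD, n = 3), followed by the pyruvate kinase gene PKM at 437 ± 59.6 RPKM (SD, n = 3) and the enolase gene ENO1 at 410 ± 86.9 RPKM (SD, n = 3). PKM and ENO1 did not differ beyond their spread. ALDOA, LDHB, TPI1, LDHA and PGK1 followed between 124 and 387 RPKM. Isozymes of the same step differed in RPKM, a value that depends on the annotated exon length used. The RPKM of ENO1 was 47.4 times that of ENO2, and that of SLC2A1 17.0 times that of SLC2A3. The RPKM of HK1 was 3.82 times that of HK2, that of P4HA1 5.39 times that of P4HA2 and that of LDHA 0.842 times that of LDHB. P4HA1 and P4HA2 have 3093 and 10128 exon bases, and without length division they averaged 108.3 and 66.0 CPM. LDHA and LDHB have 6026 and 2983 exon bases and averaged 1309.5 and 752.4 CPM. The 17 glycolytic enzymes and lactate dehydrogenases together made up 1.61% to 2.13% of the scaled counts in control libraries and 1.60% to 1.82% in siRBM3 libraries.

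**Figure D1:**
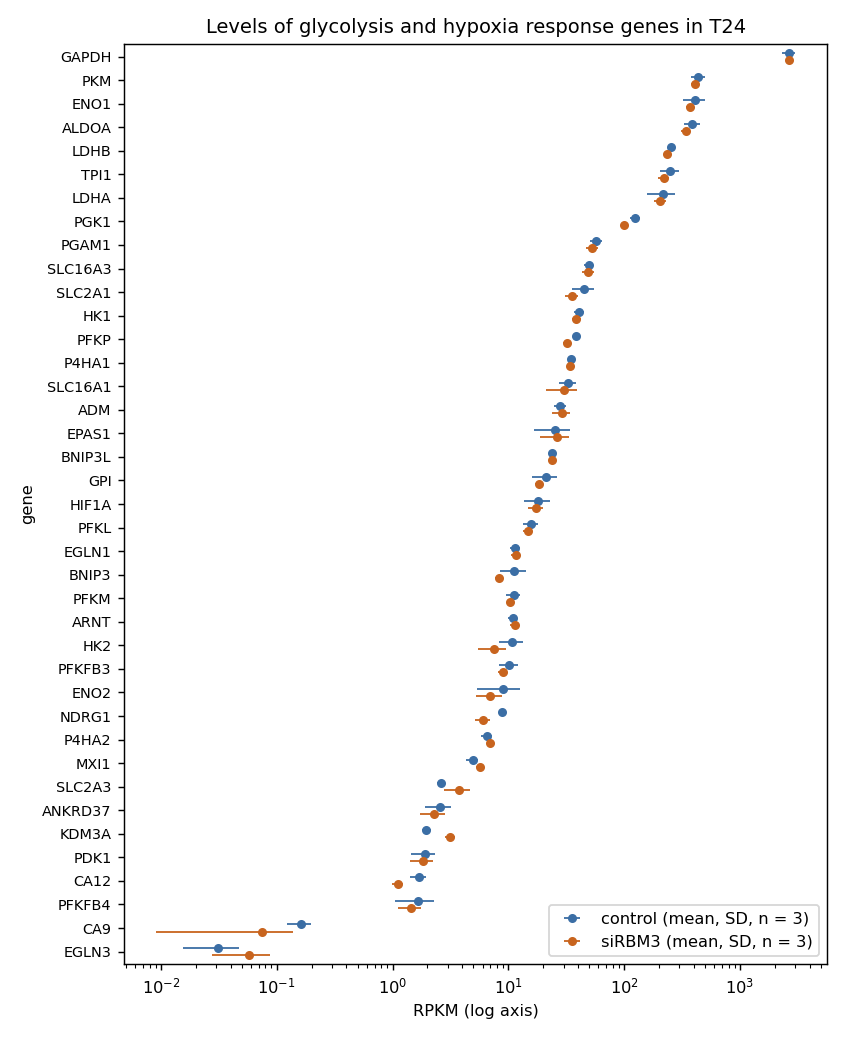
Level of each gene in RPKM on a log axis (points, mean of 3 libraries; bars, SD), with control in blue and siRBM3 in orange, ordered by the control level; the lower bar is cut short where the SD exceeds the mean, and ALDOC, listed at 0, is left out. GAPDH lies at 2650 RPKM in control cells, and CA9 and EGLN3 lie under 0.2 RPKM.

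EGLN3, CA9 and ALDOC could hardly be measured or not at all. EGLN3, a prolyl hydroxylase that is itself induced by HIF, had 0.345, 0.230 and 0.113 CPM in control 1, 3 and 5 and 0.268, 0.672 and 0.323 CPM in siRBM3 3, 4 and 5, which rest on 3 to 10 and 8 to 17 counts. CA9, a carbonic anhydrase of the cell surface widely used as a hypoxia marker, had 5 to 8 counts in control and 0 to 8 in siRBM3 libraries, and 35.7% of its exon bases overlap another gene. Both were removed by the filter on low counts, and no difference was detectable at this depth. ALDOC, the aldolase of brain, was listed at 0 in all 6 libraries. Its neighbours UNC119, PIGS and SPAG5 on chromosome 17 were listed at 0 in all libraries too, and SPAG5 is a spindle gene that dividing cells use, so the 0 of ALDOC does not show that it is silent. The prolyl hydroxylase gene EGLN2 and the HIF target HILPDA, which are not among the 40 genes, were likewise listed at 0.

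The groups were compared for the 37 remaining members with the quasi-likelihood test of edgeR, fitted over 15099 genes and adjusted by the Benjamini-Hochberg method (FDR). At the limits of the study (1.5-fold, FDR 0.01), 0 of 37 members were called, where 0% of all genes were called. The silenced gene RBM3 was not called either (log2 fold change -2.14, edgeR FDR 0.0822), so 0 calls do not show that the members were unchanged. DESeq2 at the same limits called 1 member, KDM3A, as higher in siRBM3 cells, where 0.643% of 13068 genes were called higher and 0.574% lower. At an FDR of 0.1 in edgeR, KDM3A was again the only member called, where 0.338% of genes were called higher and 0.212% lower. With an unadjusted p under 0.05 in edgeR, 2 members were higher, KDM3A and SLC2A3, where 6.56% of all genes were, and 6 were lower, namely NDRG1, CA12, PGK1, PFKP, BNIP3 and HK2, where 6.58% were. Together these 8 members are 21.6% of those tested, against 13.1% of all genes. The members were chosen with earlier results of these data known, so this comparison is only a description. The siRBM3 libraries lay wholly above the control libraries for 2 members (KDM3A and SLC2A3), where 9.98% of genes did so, and wholly below for 5 (PFKP, PGK1, LDHB, CA12 and NDRG1), where 9.93% did. In bulk RNA, fewer cells with a transcript and less of it per cell cannot be told apart.

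**Figure D2:**
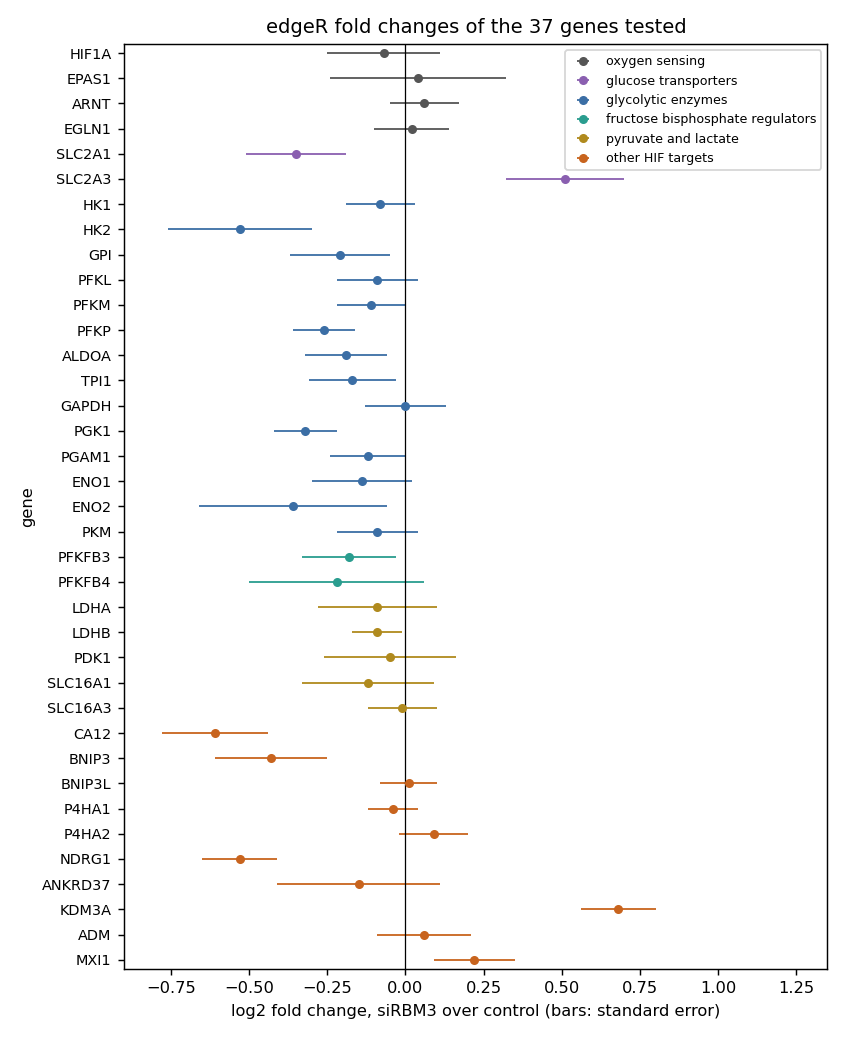
Log2 fold change of siRBM3 over control for the 37 genes that passed the filter on low counts (points, edgeR estimate; bars, standard error derived from the test statistic), coloured by role. The estimates range from -0.61 for CA12 to 0.68 for KDM3A, and those of the oxygen-sensing genes lie within 0.07 of 0.

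The oxygen-sensing genes showed no difference between the groups beyond their spread. HIF1A (ENSG00000100644), which encodes the alpha subunit HIF-1alpha, had 80.5, 121.5 and 80.0 CPM in control 1, 3 and 5 and 104.6, 80.0 and 84.9 CPM in siRBM3 3, 4 and 5. Both libraries numbered 3 were the highest of their group. The log2 fold change (log2 FC) was -0.07 (standard error, SE, 0.18, edgeR FDR 0.913), and 11.3% of its exon bases overlap another gene. EPAS1 (ENSG00000116016), which encodes HIF-2alpha, had 133.2, 258.3 and 165.3 CPM in control and 254.2, 164.1 and 154.8 CPM in siRBM3 libraries. Again the libraries numbered 3 were highest, and the groups overlapped (log2 FC 0.04, SE 0.28, edgeR FDR 0.963). Per length, EPAS1 was above HIF1A, with a HIF1A to EPAS1 ratio of 0.731 in control and 0.678 in siRBM3 cells.

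ARNT (ENSG00000143437), the partner of both alpha subunits, had 77.9, 66.7 and 65.9 CPM in control and 66.0, 77.0 and 77.3 CPM in siRBM3 libraries, with a log2 FC of 0.06 (SE 0.11, edgeR FDR 0.847). EGLN1 (ENSG00000135766), the main prolyl hydroxylase, had 63.6, 66.2 and 54.6 CPM in control and 69.2, 60.5 and 57.5 CPM in siRBM3 libraries. The groups overlapped for both genes, and the EGLN1 log2 FC was 0.02 (SE 0.12, edgeR FDR 0.958).

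The glucose transporters pointed in opposite directions. SLC2A3 (ENSG00000059804, chromosome 12, 8071826 to 8171603, minus strand), which encodes the high-affinity transporter GLUT3, had 18.7, 20.7 and 17.8 CPM in control and 34.8, 21.1 and 25.5 CPM in siRBM3 libraries. Every siRBM3 library was above every control library, although siRBM3 4 exceeded control 3 only narrowly. The log2 FC was 0.51 (SE 0.19, edgeR FDR 0.303), and it was 0.29 without siRBM3 3. Its unadjusted p exceeded 0.05 when either control 5 or siRBM3 3 was left out. SLC2A1 (ENSG00000117394), which encodes the widely expressed GLUT1, had 261.3, 373.8 and 263.9 CPM in control and 270.6, 211.3 and 221.7 CPM in siRBM3 libraries, so that only siRBM3 3 reached the control range. Its log2 FC was -0.35 (SE 0.16, edgeR FDR 0.406), and without control 3, its highest library, it was -0.16.

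The ratio of both transporters within a library does not depend on the scaling between libraries. The log2 ratio of SLC2A1 to SLC2A3 counts was 3.80, 4.17 and 3.89 in control and 2.96, 3.32 and 3.12 in siRBM3 libraries. All siRBM3 libraries were below all control libraries, with means of 3.96 ± 0.20 (SD, n = 3) and 3.13 ± 0.18 (SD, n = 3), and the two-sided exact permutation test gave p = 0.1, the smallest value that 3 libraries against 3 allow. In RPKM the ratio was 17.0 in control and 9.63 in siRBM3 cells.

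**Figure D3:**
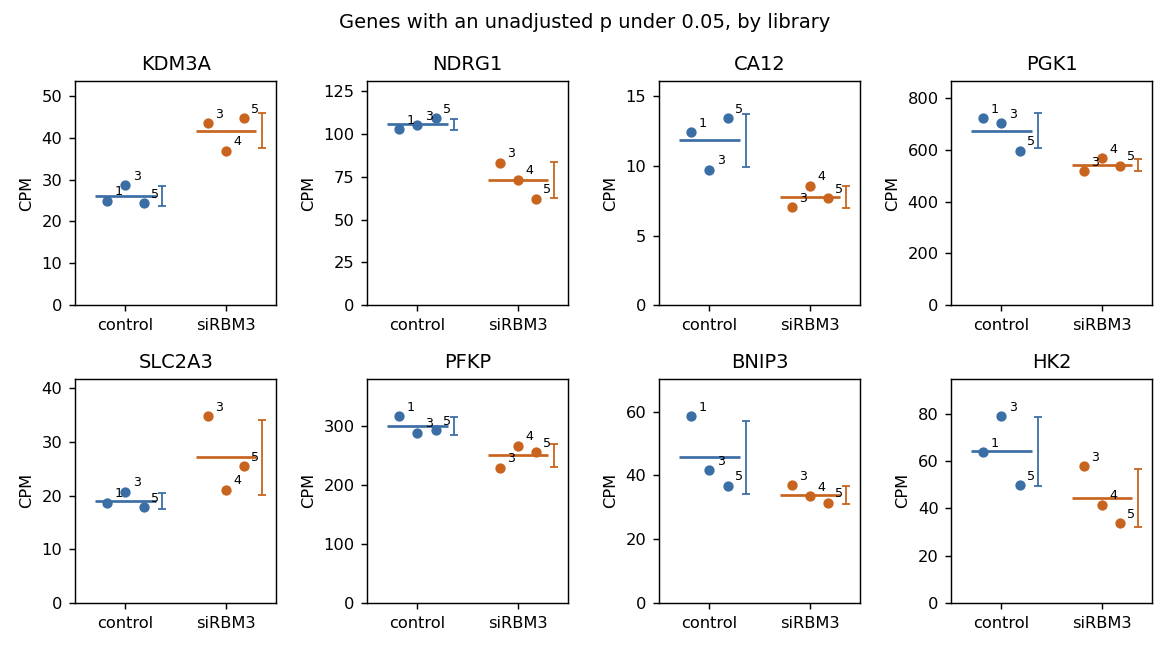
CPM in each library for the 8 genes with an unadjusted p under 0.05 in edgeR (points, libraries with their replicate number; lines, group means; side bars, SD; n = 3 per group; axes start at 0). The groups are apart for KDM3A, NDRG1, CA12, PGK1, SLC2A3 and PFKP and overlap for BNIP3 and HK2.

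Among the glycolytic enzymes, 3 of the 14 tested were lower at an unadjusted p under 0.05 and 0 were higher, where 6.58% and 6.56% of all genes were. HK2 (ENSG00000159399, chromosome 2, 75061254 to 75120486, plus strand), the inducible hexokinase that phosphorylates glucose in many tumours, had 63.8, 79.0 and 49.7 CPM in control and 57.8, 41.6 and 33.7 CPM in siRBM3 libraries. The groups overlapped, since siRBM3 3 was above control 5. The log2 FC was -0.53 (SE 0.23, edgeR FDR 0.376), and it lay between -0.77 without siRBM3 3 and -0.35 without control 3. The unadjusted p exceeded 0.05 without control 1, control 3, siRBM3 4 or siRBM3 5. HK1, the constitutive hexokinase, had a log2 FC of -0.08 (SE 0.11, edgeR FDR 0.801).

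PFKP (ENSG00000067057, chromosome 10, 3108525 to 3179910, plus strand), the platelet-type subunit of phosphofructokinase, had 316.0, 287.8 and 291.9 CPM in control and 228.4, 265.7 and 254.9 CPM in siRBM3 libraries. It was lower in every siRBM3 library, by a log2 FC of -0.26 (SE 0.10, edgeR FDR 0.307), and the unadjusted p exceeded 0.05 without control 1, siRBM3 3 or siRBM3 5. The liver and muscle types, PFKL and PFKM, had log2 FCs of -0.09 and -0.11, and the log2 ratios of PFKP to each overlapped between the groups. PGK1 (ENSG00000102144, chromosome X, 77166236 to 77384792, plus strand), the phosphoglycerate kinase of the first ATP-yielding step, had 722.4, 704.2 and 597.2 CPM in control and 518.5, 568.5 and 539.5 CPM in siRBM3 libraries. The siRBM3 libraries were all below the control libraries, with a log2 FC of -0.32 (SE 0.10, edgeR FDR 0.266) whose leave-one-out values ran from -0.40 to -0.27. Without siRBM3 3 the unadjusted p exceeded 0.05.

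The most abundant enzymes did not separate the groups. GAPDH (ENSG00000111640) had 7164, 5423 and 6462 CPM in control and 6089, 6735 and 6245 CPM in siRBM3 libraries, a log2 FC of 0.00 (SE 0.13, edgeR FDR 0.998), and 17.6% of its exon bases overlap another gene. PKM (ENSG00000067225) had 4284, 3265 and 3701 CPM in control and 3161, 3702 and 3671 CPM in siRBM3 libraries, and ENO1 (ENSG00000074800) had 2663, 1848 and 1912 CPM and 1774, 1932 and 2114 CPM. For all 3 genes control 1 was the highest of all libraries. The log2 FCs were -0.09 for PKM (SE 0.13) and -0.14 for ENO1 (SE 0.16).

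GPI, ALDOA, TPI1, PGAM1 and ENO2, which act at other steps of the chain, had log2 FCs of -0.21, -0.19, -0.17, -0.12 and -0.36, and all had FDR values above 0.5 in edgeR. Processed pseudogenes can take reads from these genes. The annotated pseudogenes of GAPDH, 64 in number, held 0.131% as many counts as GAPDH, and this share was at most 1.13%, for BNIP3 with 42 pseudogenes. Reads that could not be placed between a gene and its pseudogene are not measured by this share.

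The regulators PFKFB3 and PFKFB4, which set the level of the activator of phosphofructokinase, had log2 FCs of -0.18 (SE 0.15) and -0.22 (SE 0.28). LDHA, the lactate dehydrogenase subunit induced by HIF, had 1722, 1066 and 1141 CPM in control and 1071, 1347 and 1284 CPM in siRBM3 libraries, with control 1 the highest of all. Its log2 FC was -0.09 (SE 0.19, edgeR FDR 0.881). LDHB had 752.2, 751.8 and 753.0 CPM in control and 707.6, 722.4 and 684.7 CPM in siRBM3 libraries. The control values were within 2 CPM of each other and the siRBM3 libraries all lay below them, but the difference was small (log2 FC -0.09, SE 0.08, edgeR FDR 0.687). PDK1, the kinase that shuts off pyruvate dehydrogenase, and the lactate transporters SLC16A1 and SLC16A3 (MCT1 and MCT4) had log2 FCs of -0.05, -0.12 and -0.01.

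The largest differences were among the other HIF targets, of which 10 were tested. With an unadjusted p under 0.05, 1 of them was higher in siRBM3 cells and 3 were lower, where 6.56% and 6.58% of all genes were. KDM3A (ENSG00000115548, chromosome 2, 86667770 to 86719839, plus strand), a histone demethylase of H3K9 that is induced by HIF, had 24.9, 28.7 and 24.4 CPM in control and 43.4, 36.9 and 44.6 CPM in siRBM3 libraries. All siRBM3 libraries were well above all control libraries, with means of 41.6 ± 4.14 CPM and 26.0 ± 2.34 CPM (SD, n = 3 each), a fold change of 1.60. The log2 FC was 0.68 (SE 0.12), with an FDR of 0.0961 in edgeR and an adjusted p of 0.000741 in DESeq2 (Benjamini-Hochberg). Leaving out any single library gave 0.63 to 0.76.

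NDRG1 (ENSG00000104419, chromosome 8, 134249418 to 134314265, minus strand), a stress-responsive gene strongly induced by hypoxia in many cell types, had 103.0, 105.2 and 109.2 CPM in control and 83.4, 73.4 and 62.2 CPM in siRBM3 libraries. The groups were apart, and the log2 FC of -0.53 (SE 0.12) had an FDR of 0.149 in edgeR and an adjusted p of 0.0129 in DESeq2. CA12 (ENSG00000074410, chromosome 15, 63613577 to 63674045, minus strand), a membrane carbonic anhydrase, had 12.4, 9.72 and 13.4 CPM in control and 7.02, 8.57 and 7.67 CPM in siRBM3 libraries. The siRBM3 libraries were all lower, by a log2 FC of -0.61 (SE 0.17), with an FDR of 0.209 in edgeR and an adjusted p of 0.0436 in DESeq2.

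BNIP3 (ENSG00000176171, chromosome 10, 133781188 to 133795471, minus strand), a mitophagy receptor of the outer mitochondrial membrane, had 58.6, 41.6 and 36.8 CPM in control and 36.9, 33.5 and 31.4 CPM in siRBM3 libraries. Control 1 was far above the other libraries, and the log2 FC of -0.43 (SE 0.18, edgeR FDR 0.349) became -0.21 without it. The unadjusted p exceeded 0.05 without control 1, siRBM3 4 or siRBM3 5. Its paralogue BNIP3L had 99.6, 99.5 and 96.2 CPM in control and 105.9, 98.3 and 93.6 CPM in siRBM3 libraries, a log2 FC of 0.01 (SE 0.09). The log2 ratio of BNIP3 to BNIP3L was -0.77, -1.26 and -1.39 in control and -1.52, -1.55 and -1.58 in siRBM3 libraries. The groups did not overlap (two-sided exact permutation test, p = 0.1, the smallest possible). Of 14 isozyme or paralogue pairs compared in this way, 11 had both genes tested, and 2 did not overlap between the groups, SLC2A1 with SLC2A3 and BNIP3 with BNIP3L, both lower in siRBM3 cells. Pairs were counted in either direction, and of single genes tested 9.98% were higher and 9.93% lower in siRBM3 cells without overlap. The number of such pairs was 5 without control 1 and 4 without siRBM3 3 or siRBM3 4. Groups with fewer libraries separate more readily, and the shares of single genes above are from all libraries. These counts are therefore not comparable with those shares or with the count from all libraries.

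The remaining targets overlapped between the groups. The collagen prolyl hydroxylases P4HA1 and P4HA2 had log2 FCs of -0.04 and 0.09, the vasodilator peptide gene ADM 0.06, the MYC antagonist MXI1 0.22 and ANKRD37 -0.15. All 5 had FDR values above 0.5 in edgeR. For ANKRD37, 40.3% of the exon bases overlap another gene, so its value is uncertain.

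Glycolytic enzymes and other HIF targets were then set side by side. Of the 16 genes tested among glycolytic enzymes and lactate dehydrogenases, 15 had a negative log2 FC and GAPDH was at 0.00, with a median of -0.13 and a range from -0.53 to 0.00. Of the 10 other HIF targets tested, 5 were negative and 5 positive, with a median of -0.01 and a range from -0.61 to 0.68. Over all genes tested 51.5% were negative and the median was -0.01.

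Control 1 held the highest enzyme values, and its part in the shift of the enzymes was not tested. This library was the highest of the 6 for 14 of the 16 enzyme genes, where it was the highest for 21.7% of all genes tested, and siRBM3 3 was the lowest for 11 of 16, where it was the lowest for 19.4% of all genes. The median deviation of the enzymes from the control mean, in log2 CPM, was 0.20, -0.17 and -0.05 in control 1, 3 and 5 and -0.25, -0.08 and -0.07 in siRBM3 3, 4 and 5. The values of siRBM3 4 and 5 thus lay between those of the control libraries. Without control 1 the median log2 FC of the enzymes was 0.00, and without control 1 and siRBM3 3 together it was 0.07. With any other single library left out it lay between -0.23 (without control 3) and -0.09 (without siRBM3 3). For the other HIF targets the median deviations were 0.03, -0.05 and 0.01 in control and 0.10, -0.08 and -0.08 in siRBM3 libraries. The difference between both groups of genes was not tested.

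**Figure D4:**
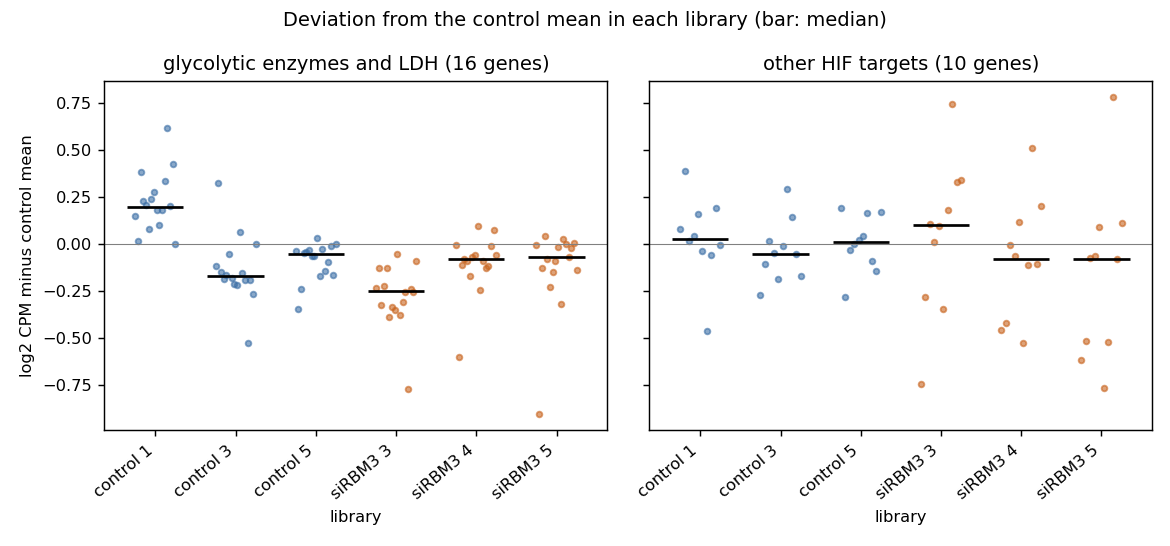
Log2 CPM of each gene minus its mean over the control libraries, by library, for 16 glycolytic enzymes and lactate dehydrogenases (left) and 10 other HIF targets (right); points are genes, black bars medians, blue control and orange siRBM3. The enzymes are highest in control 1, at a median of 0.20, and lowest in siRBM3 3, at -0.25, while the other targets spread in both directions in the siRBM3 libraries.

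Further genes of both pathways were read from lists that were not part of the 40 and were likewise chosen with earlier results of these data known. Of 44 further hypoxia genes, 39 could be tested. At an unadjusted p under 0.05 there was 1 higher gene and 5 lower ones, together 15.4% against 13.1% of all genes, with a median log2 FC of -0.04. HIF1AN, which encodes the asparaginyl hydroxylase that blocks HIF from its coactivators, had 84.1, 80.4 and 82.4 CPM in control and 44.5, 56.0 and 53.7 CPM in siRBM3 libraries. All siRBM3 libraries were far below the control libraries, and the log2 FC of -0.68 (SE 0.11) had an FDR of 0.0851 in edgeR and an adjusted p of 0.000261 in DESeq2, which called it at the limits of the study. AK4, a mitochondrial adenylate kinase, averaged 33.5 ± 9.38 CPM without and 20.2 ± 0.596 CPM with silencing (SD, n = 3 each), with a log2 FC of -0.73 (SE 0.19, edgeR FDR 0.187). The angiogenic factor gene VEGFA and the mTORC1 inhibitor gene DDIT4 had log2 FCs of -0.67 and -0.49, and their groups overlapped. For VEGFA the unadjusted p exceeded 0.05 without control 3 (log2 FC -0.43), siRBM3 4 or siRBM3 5. For DDIT4 it did so with any one library left out other than siRBM3 4, without which the log2 FC was -0.77. BHLHE41, a transcriptional repressor, was the one higher gene, with a log2 FC of 0.49 (SE 0.16, edgeR FDR 0.262), and its unadjusted p exceeded 0.05 without control 5 or siRBM3 4.

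Of 26 further glycolysis genes, 17 could be tested, of which 1 was higher and 1 was lower by the same measure, together 11.8% against 13.1% of all genes. TIGAR, a phosphatase that lowers fructose 2,6-bisphosphate, averaged 16.0 ± 2.16 CPM without and 11.6 ± 0.283 CPM with silencing (SD, n = 3 each; log2 FC -0.46, SE 0.14, edgeR FDR 0.242). PDK4, another pyruvate dehydrogenase kinase, was scarce, at 0.603 ± 0.196 and 1.18 ± 0.136 CPM (SD, n = 3 each), with a log2 FC of 0.97 (SE 0.31, edgeR FDR 0.254). Of 7 pentose phosphate genes, 1 was lower and 0 were higher, which is 14.3% against 13.1% of all genes. RPIA, the ribose 5-phosphate isomerase, had 26.1, 26.9 and 26.4 CPM in control and 15.9, 18.8 and 12.6 CPM in siRBM3 libraries. The groups were apart by a log2 FC of -0.75 (SE 0.16), with an FDR of 0.130 in edgeR and an adjusted p of 0.00240 in DESeq2, which called it too.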

How the data were processed

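The authors trimmed the reads with BBDuk, aligned them to hg19/GRCh37 with STAR 2.5.2a, used Picard to mark duplicates and took gene-level counts from featureCounts (Subread). The deposited values are these raw counts, from single-end reads of a stranded mRNA kit. The sources used here do not give the annotation release, the strand setting or the handling of marked duplicates, and values of overlapping genes are uncertain. Symbols and exons came from GENCODE v44lift37, which matched 55665 identifiers; exon overlap was taken among genes of the count table.

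Genes were kept by filterByExpr (minimum count 10, total 15), scaled by TMM and tested with the robust quasi-likelihood method of edgeR 4.0.16 in R 4.3.3 with the siRNA as the only factor, over 15099 genes with Benjamini-Hochberg adjustment. The study's limits (1.5-fold, FDR 0.01) were kept. The SE given with edgeR was derived from the test, as the absolute log2 fold change divided by the square root of the quasi-likelihood F statistic. Its own tool, DESeq2 (version 1.42.0 here), was an alternative, as was voom from limma 3.58.1, and the closing section names the others (scaling, filters, offsets, a replicate block, leaving out libraries). CPM uses TMM-scaled totals, and RPKM divides it by the union of annotated exons. The fitting code was tested on simulated data. The members, their roles and the further lists were chosen with earlier results of these data known. Values in every library are given for members with an unadjusted p under 0.05, the 5 largest fold changes, the 3 highest levels, the oxygen sensors and pairs whose ratios did not overlap; other such values were chosen after seeing the data, as were the genes named beside ALDOC. From each further list up to 6 genes with an unadjusted p under 0.05 are named, except for a result that is not reported here.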

Additional observations from a re-analysis of the deposited data

How the results depend on the processing

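For 17 members (not LDHA, LDHB and EGLN3, whose values in every library were added or could not be tested), 252 of 255 values under alternatives kept their side of the limits of a 1.5-fold change and an FDR of 0.01, and 0 of those with an unadjusted p under 0.05 changed sign. The 3 other values were of KDM3A: the number of members past the limits went from 0 to 1 with DESeq2 (log2 fold change 0.68), without the filter on low counts (0.69) and with the replicate number as a block (0.73, FDR 0.00512). The block estimate rests only on the libraries numbered 3 and 5. At an FDR of 0.1 without a fold limit the number of members called was 1 too. The cause was not tested. In the main fit only KDM3A (0.68) and CA12 (-0.61) of the 17 members exceeded 1.5-fold, so the count of 252 says little about the others. Without the filter on low counts NDRG1 (FDR 0.00257) and HK2 (FDR 0.00735) came under the FDR limit but stayed within the fold limit. HIF1A, EPAS1, EGLN1, ENO1, PKM and BNIP3L, whose groups overlapped, changed sign under at least 1 alternative. GAPDH, at 0.00 in the main fit, lay on either side of 0, from -0.10 to 0.10 with each library left out. RBM3 passed the limits with DESeq2 (-2.14), without the filter (-2.13), with the replicate block (-2.57) and without control 1 and siRBM3 3 (-2.17, chosen after seeing the data), and ranged from -2.40 to -1.96 with each library left out.

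With each library left out, the members higher at an unadjusted p under 0.05 numbered 1 to 2. There was 1 without control 5 and 1 without siRBM3 3, where SLC2A3 was lost. The lower ones numbered 3 to 8, with 3 without siRBM3 5. The shares of all genes in these fits are not given, so the counts cannot be set against the shares of the main fit. The median of the enzymes ranged from -0.23 to 0.00 and that of the other HIF targets from -0.08 to 0.03. The pairs that did not overlap ranged from 2 to 5, with 5 without control 1 and 4 without siRBM3 3 or siRBM3 4. Groups with fewer libraries separate more readily, so these pair counts are not comparable with that from all libraries. Without control 1 and siRBM3 3 the enzyme median was 0.07 and 1 member was higher. With offsets for GC content and exon length the enzyme median was -0.09, and with library size only -0.18.

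The replicate numbers 3 and 5 are shared by the groups, and the labels give them no meaning. Number 1 occurs only in control and number 4 only in siRBM3. Every estimate with the block, including that of RBM3, thus rests on the libraries numbered 3 and 5, in effect without control 1 and siRBM3 4. Deviations from the group means correlated at 0.61 between the libraries numbered 3 and at 0.09 between those numbered 5. Between differently numbered control and siRBM3 libraries the correlations ran from -0.42 to 0.28. Whether the numbers mark pairs was not tested. With the block the enzyme median was -0.05 and that of the other HIF targets 0.01. The members at an unadjusted p under 0.05 were then 2 higher and 5 lower ones. PGK1 (-0.29) and BNIP3 (-0.20) were lost and SLC2A1 (-0.36) was gained. limma-voom and the GC and length offsets each left 4 lower members, without HK2 and BNIP3. For the block and these alternatives the share of all genes is not given. The counts of members therefore cannot be set against the shares of the main fit. EGLN3 and CA9 are limited by depth.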
